A study of Saccharomyces cerevisiae with 8 samples.

Results

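The SUMO system of budding yeast was followed here at the transcript level through 10 genes out of the 5444 genes measured. They were chosen by name, with earlier results of these data known. They are the modifier *SMT3*, the activating enzyme subunit *UBA2*, the conjugating enzyme *UBC9*, the ligases *SIZ1* and *MMS21*, the proteases *ULP1* and *ULP2*, and the SUMO-targeted ubiquitin ligase genes *SLX5*, *SLX8* and *ULS1*. Each of the 10 had 1 probe set of its own on the Affymetrix GeneChip Yeast Genome 2.0 array, so no choice between probe sets was needed.

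The arrays came from the haploid strain CEN.PK113-11C carrying either p413 TEF-UBB+1 (L-UBB+1 strain) or the same plasmid without an insert (control strain). UBB+1 is a frameshifted ubiquitin that accumulates in Alzheimer's disease brains, and the TEF promoter drives it constitutively, at a low level in this strain. Duplicate shake flask cultures of each strain were sampled in exponential phase (EX) and at D6, 6 days after the carbon source was used up, which gave 4 groups of 2 arrays: L-UBB+1 EX, control EX, L-UBB+1 D6 and control D6. The study asked how low UBB+1 expression affects the transcriptome in both phases, and both strains share the *his3* and *ura3-52* mutations of the parent.

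SUMO is a small protein related to ubiquitin that is joined to lysines of other proteins. In *S. cerevisiae* it is made by the single gene *SMT3*, activated by the Aos1-Uba2 heterodimer, passed to Ubc9 and placed on substrates with the help of ligases such as Siz1, and it is removed by the proteases Ulp1 and Ulp2. A SUMO-targeted ubiquitin ligase binds proteins that already carry SUMO and adds ubiquitin to them, which connects SUMO to the proteasome and to the Cdc48 segregase. This route is best known in yeast from genome maintenance and nuclear protein quality control.

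The array values were deposited on a log2 scale, and levels and differences are given on that scale throughout, where a difference of 1 means 2-fold. Array medians lay between 8.338 and 8.41, and replicate arrays of a group differed with an SD over genes of 0.202 to 0.287. Arrays of different strains differed with an SD of 1.19 to 1.3, while EX and D6 arrays of the L-UBB+1 strain differed by as little as 0.086, below every replicate pair. Most marker genes of stationary phase and of growth on glucose differed more between the strains than between the labelled phases. *SPG4*, a gene needed for survival at high temperature in stationary phase, read 12.25 and 12.44 on the L-UBB+1 EX arrays, 7.44 and 6.82 on the control EX arrays, 12.43 and 12.31 on the L-UBB+1 D6 arrays and 6.57 and 6.46 on the control D6 arrays. *SPG1* and *SPG4* were thus high on the arrays labelled L-UBB+1 EX and low on those labelled control D6, which goes against those phase labels. Over the whole marker lists, the 4 stationary phase genes ranged from 11.08 to 12.57 on L-UBB+1 arrays and from 5.95 to 12.09 on control arrays, and the 4 genes of growth on glucose from 6.48 to 9.51 on L-UBB+1 arrays and from 8.14 to 12.16 on control arrays. *HSP12*, a stress protein gene of stationary phase, overlapped between the strains at EX. Of the 8 markers *HXT1*, a low-affinity glucose transporter gene, was the 1 that passed between the phases of the control strain, at 9.45 and 9.96 on the D6 arrays against 8.59 and 8.41 on the EX arrays (log2 fold change 1.21, adjusted p = 0.0389, limma). For the strain differences that follow, the plasmid and the growth state of the cultures cannot be told apart, and the phases are named as labelled. The SUMO genes were also compared between the L-UBB+1 D6 and control EX arrays alone, without the other 4 arrays. Those groups differ in both strain and labelled phase, so that fit cannot separate the plasmid from the growth state. The methods give the parent as *MATα*. Of 5 genes specific to **a** cells, 4 (*STE2*, *STE6*, *BAR1*, *MFA2*) were called lower in the L-UBB+1 strain at both phases. Their higher level on the control arrays is what goes against that mating type. The fifth, *MFA1*, ranged from 9.53 to 9.80 on L-UBB+1 arrays and from 8.90 to 9.34 on control arrays. *STE2* (the alpha factor receptor) ranged from 7.55 to 7.83 on L-UBB+1 arrays and from 9.99 to 10.74 on control arrays. The alpha-cell gene *STE3* (the a-factor receptor) ranged from 7.41 to 7.50 on L-UBB+1 arrays and from 6.29 to 6.82 on control arrays. The part of growth state or mating type in the values of the SUMO genes was not tested.

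Of the 10 SUMO genes, 6 were higher in the L-UBB+1 strain at both phases, by 2.18-fold to 5.50-fold at EX and 2.28-fold to 5.88-fold at D6. They were the 3 genes of SUMO-targeted ubiquitin ligases (*SLX8*, *SLX5*, *ULS1*), the ligase gene *SIZ1* and both protease genes (*ULP2*, *ULP1*). The genes of the modifier itself and of its activation and conjugation (*SMT3*, *UBA2*, *UBC9*), with the ligase gene *MMS21*, differed by less than 2-fold and none was called. Called means that limma gave an adjusted p below 0.001 (Benjamini-Hochberg over all 5444 genes) with a difference of 1 or more on the log2 scale, up or down. At EX this rule took 17.2% of all genes as higher in the L-UBB+1 strain and 17.1% as lower. At D6 it took 17.9% as higher and 18.5% as lower. The SUMO genes therefore stood at 6 of 10 called higher and 0 of 10 called lower at each phase. Their median log2 fold change was 1.48 at EX and 1.35 at D6, against 0 and -0.01 over all genes. An array reads the average of a culture, so more cells that express a gene and more RNA per cell cannot be told apart.

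**Figure D1:**
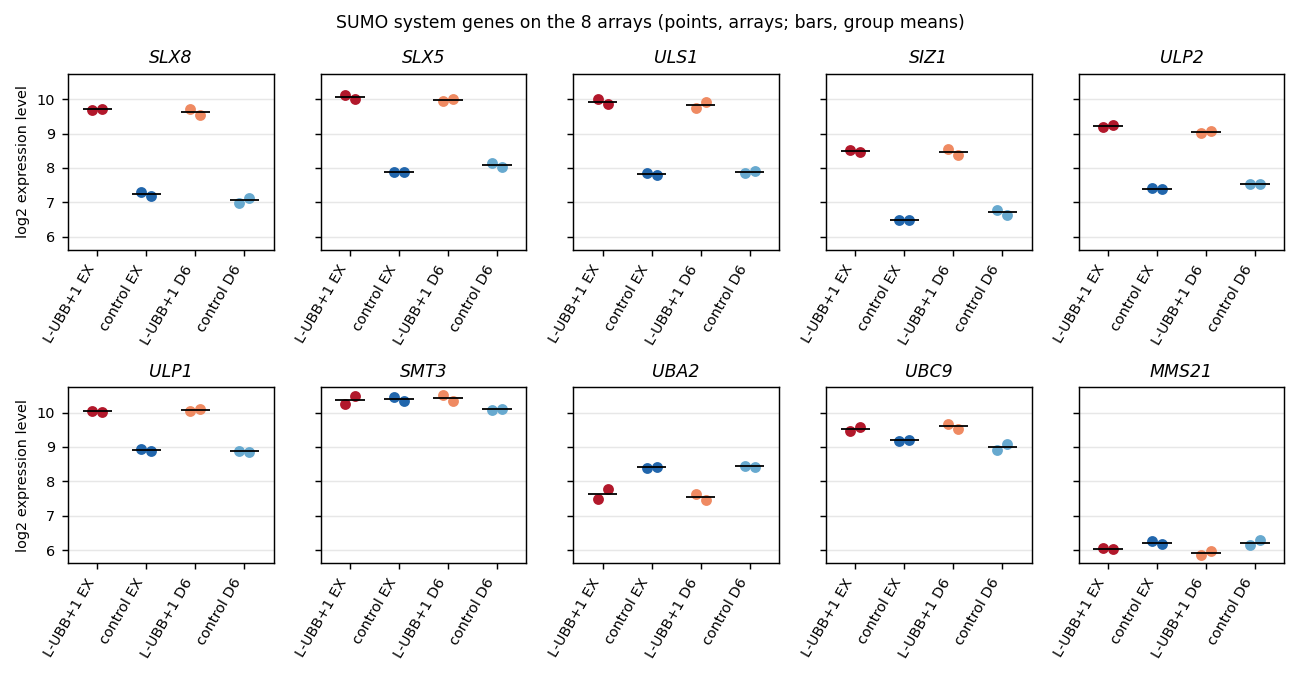
Log2 expression level (vertical axes) of each SUMO system gene on the 8 arrays, with L-UBB+1 left of control at EX and then at D6. Points are arrays and bars are group means. The 6 genes *SLX8*, *SLX5*, *ULS1*, *SIZ1*, *ULP2* and *ULP1* lie higher on all 4 L-UBB+1 arrays than on all 4 control arrays. So does *UBC9*, by less, while *UBA2* and *MMS21* lie lower on all 4, and *SMT3* overlaps at EX.

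*SLX8* (YER116C) had the largest difference of the 10 genes at both phases. It encodes the RING subunit of the Slx5-Slx8 heterodimer that recruits the ubiquitin-conjugating enzyme. Its level was 9.69 and 9.72 on the L-UBB+1 EX arrays against 7.30 and 7.20 on the control EX arrays. At D6 it was 9.70 and 9.54 on the L-UBB+1 arrays against 6.996 and 7.14 on the control arrays. The L-UBB+1 arrays stood clear of the control arrays by over 2 units, while replicates lay close together. For *SLX8* the L-UBB+1 strain was 5.50-fold above the control strain at EX (log2 fold change 2.46, SE 0.10, adjusted p = 1.88e-06) and 5.88-fold above it at D6 (2.56, SE 0.10, adjusted p = 1.56e-06). Among all 5444 genes these rises ranked 124 and 137 from the top.

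The partner subunit gene *SLX5* (YDL013W), whose product carries the SUMO-interacting motifs with which the dimer binds its substrates, rose together with *SLX8*. Levels of *SLX5* were 10.12 and 10.01 on the L-UBB+1 EX arrays against 7.89 and 7.90 on the control EX arrays, and 9.96 and 10.02 on the L-UBB+1 D6 arrays against 8.16 and 8.02 on the control D6 arrays. All 4 L-UBB+1 arrays were high and the control D6 arrays lay slightly above the control EX arrays. The differences were 2.17 at EX (4.49-fold, SE 0.09, adjusted p = 2.2e-06) and 1.90 at D6 (3.74-fold, SE 0.09, adjusted p = 3.09e-06). 

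*ULS1* (YOR191W) encodes a DNA translocase of the Swi2/Snf2 family with a RING domain, which binds SUMO and is counted with the SUMO-targeted ligases. It read 10.003 and 9.85 on the L-UBB+1 EX arrays against 7.85 and 7.81 on the control EX arrays, and 9.76 and 9.91 on the L-UBB+1 D6 arrays against 7.86 and 7.91 on the control D6 arrays. The control arrays of both phases spanned a narrow range well below every L-UBB+1 array. The transcript was 4.29-fold more abundant in the L-UBB+1 strain at EX (log2 fold change 2.10, SE 0.10, adjusted p = 2.94e-06) and 3.85-fold at D6 (1.95, SE 0.10, adjusted p = 3.48e-06). All 3 genes of SUMO-targeted ubiquitin ligases were thus called at both phases.

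Of the ligase genes that place SUMO on substrates, *SIZ1* rose and *MMS21* was not called. *SIZ1* (YDR409W) encodes the PIAS-type ligase that modifies septins and the replication clamp PCNA. Its level was 8.53 and 8.46 on the L-UBB+1 EX arrays against 6.49 and 6.48 on the control EX arrays, and 8.56 and 8.37 on the L-UBB+1 D6 arrays against 6.77 and 6.64 on the control D6 arrays. The groups did not overlap at either phase. The log2 fold change of *SIZ1* was 2.01 at EX (4.03-fold, SE 0.10, adjusted p = 3.91e-06) and 1.76 at D6 (3.38-fold, SE 0.10, adjusted p = 5.98e-06). *MMS21* (YEL019C) encodes the ligase that is a subunit of the Smc5/6 complex. It was among the dimmest probe sets of the array, at percentile 3.07 of the mean level, with 6.05 and 6.04 on the L-UBB+1 EX arrays against 6.26 and 6.18 on the control EX arrays and 5.85 and 5.96 on the L-UBB+1 D6 arrays against 6.14 and 6.30 on the control D6 arrays. The L-UBB+1 arrays lay below the control arrays at both phases by small steps. Its difference was -0.18 at EX (95% interval -0.41 to 0.06, adjusted p = 0.14) and -0.31 at D6 (-0.54 to -0.08, adjusted p = 0.0224), and a dim probe set can understate a difference.

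Both SUMO proteases rose, *ULP2* by more than *ULP1* at each phase. Ulp1 sits at the nuclear pore, where it matures the Smt3 precursor and frees SUMO from substrates, and Ulp2 acts inside the nucleus, mainly on chains of SUMO. *ULP2* (YIL031W) read 9.20 and 9.24 on the L-UBB+1 EX arrays against 7.40 and 7.38 on the control EX arrays, and 9.01 and 9.09 on the L-UBB+1 D6 arrays against 7.55 and 7.55 on the control D6 arrays. *ULP1* (YPL020C) read 10.05 and 10.02 on the L-UBB+1 EX arrays against 8.93 and 8.89 on the control EX arrays, and 10.04 and 10.09 on the L-UBB+1 D6 arrays against 8.90 and 8.86 on the control D6 arrays. Replicates of *ULP1* differed little and the strains were apart on every array. The L-UBB+1 strain exceeded the control strain in *ULP2* by 3.55-fold at EX (log2 fold change 1.83, SE 0.08, adjusted p = 2.59e-06) and by 2.84-fold at D6 (1.504, SE 0.08, adjusted p = 4.87e-06). In *ULP1* it did so by 2.18-fold at EX (1.12, SE 0.08, adjusted p = 1.63e-05) and by 2.28-fold at D6 (1.19, SE 0.08, adjusted p = 1.2e-05). Whether the 2 proteases differ in their response was not tested.

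The modifier and the enzymes upstream of the ligases moved in different directions and by less. *SMT3* (YDR510W), the SUMO gene and an essential one, was bright on every array. Its level was 10.25 and 10.47 on the L-UBB+1 EX arrays against 10.45 and 10.35 on the control EX arrays, and 10.50 and 10.33 on the L-UBB+1 D6 arrays against 10.09 and 10.11 on the control D6 arrays. The strains overlapped at EX and were apart at D6, where the control arrays were lowest. The difference was -0.04 at EX (95% interval -0.30 to 0.23, adjusted p = 0.773) and 0.32 at D6 (0.05 to 0.58, 1.24-fold, adjusted p = 0.0357). With the L-UBB+1 D6 and control EX arrays alone it was 0.015 (adjusted p = 0.914, limma), in a fit that mixes strain with labelled phase. The intervals leave no room for a 2-fold difference of *SMT3* in either direction.

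*UBA2* (YDR390C), which encodes the catalytic subunit of the activating enzyme, was the gene of the 10 with the lowest log2 fold change at both phases. It read 7.49 and 7.77 on the L-UBB+1 EX arrays against 8.40 and 8.42 on the control EX arrays, and 7.63 and 7.47 on the L-UBB+1 D6 arrays against 8.46 and 8.41 on the control D6 arrays. Every L-UBB+1 array lay below every control array. *UBA2* was 1.72-fold lower in the L-UBB+1 strain at EX (log2 fold change -0.78, SE 0.12, adjusted p = 0.000593) and 1.84-fold lower at D6 (-0.88, SE 0.12, adjusted p = 0.000295), past the p-value threshold but short of the fold minimum. With a replicate block in the limma fit, the adjusted p was 0.00199 at EX and 0.00109 at D6, above the threshold of 0.001.

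*UBC9* (YDL064W), the gene of the only SUMO-conjugating enzyme, was slightly higher in the L-UBB+1 strain. Its level was 9.47 and 9.57 on the L-UBB+1 EX arrays against 9.17 and 9.21 on the control EX arrays, and 9.67 and 9.53 on the L-UBB+1 D6 arrays against 8.92 and 9.08 on the control D6 arrays. The arrays of the strains did not overlap. The difference was 0.33 at EX (95% interval 0.08 to 0.57, adjusted p = 0.0229) and 0.60 at D6 (0.36 to 0.85, adjusted p = 0.00122), 1.25-fold and 1.52-fold. At EX the adjusted p lay above 0.05 when the arrays were quantile normalized (0.0823) or centred on their medians (0.0571).

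Counted at an adjusted p under 0.05 with no fold minimum, 7 of the 10 genes were higher and 1 lower at EX, where 74.7% of all genes passed in either direction (2027 of 5444 higher and 2039 lower). At D6 all 10 passed, 8 higher and 2 lower, where 76% of all genes did (2051 higher and 2089 lower). At EX the 2 L-UBB+1 arrays lay wholly above the control arrays for 7 genes and wholly below for 2, with *SMT3* overlapping. At D6 they did so for 8 and 2 genes. The share of all genes lying apart in this way was not counted, so these counts do not set the SUMO genes apart. The gap between replicate arrays of a group was 0.002 to 0.275 over the 10 genes, with a median of 0.081. Between the L-UBB+1 D6 and control EX arrays alone, the same 6 genes were called. This fit reuses arrays of the fits above and mixes strain with labelled phase, so it is no separate test of the strain difference. Its log2 fold changes were 2.38 for *SLX8*, 2.09 for *SLX5*, 2.01 for *ULS1*, 1.98 for *SIZ1*, 1.66 for *ULP2* and 1.16 for *ULP1*.

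**Figure D2:**
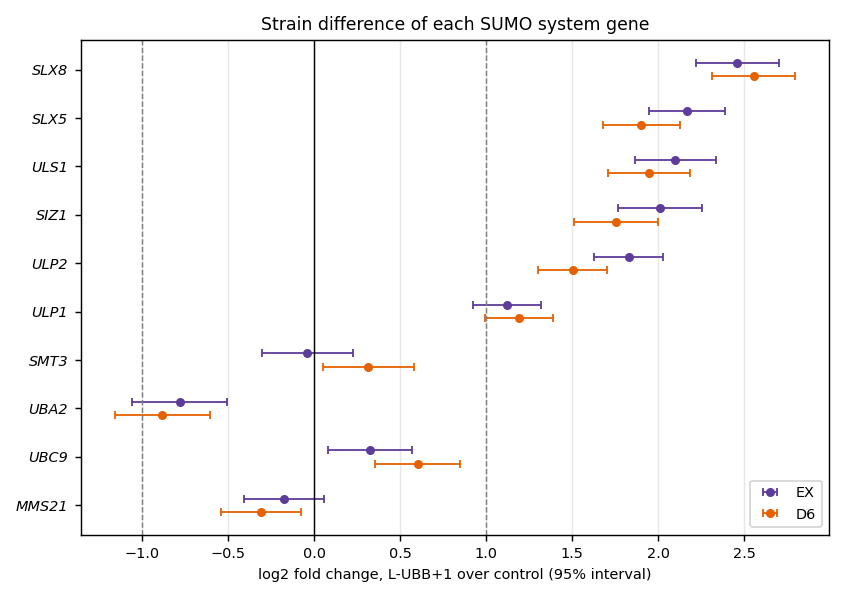
Log2 fold change of each SUMO system gene, L-UBB+1 over control (horizontal axis), at EX and at D6 from limma, with bars for the 95% interval and dashed lines at the fold minimum of the call rule. *SLX8* is highest at 2.46 and 2.56, *ULP1* is the lowest of the 6 called genes at 1.12 and 1.19, and *UBA2* lies at -0.78 and -0.88.

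Within each strain the SUMO genes hardly differed between the phases as labelled. In the L-UBB+1 strain the D6 minus EX difference lay between -0.17 (*ULP2*, 95% interval -0.37 to 0.03) and 0.08 (*UBC9*, -0.16 to 0.33), and in the control strain between -0.30 (*SMT3*, -0.57 to -0.03) and 0.23 (*SIZ1*, -0.02 to 0.47). By limma at an adjusted p under 0.05, 0 of the 10 genes and 0% of all genes passed in the L-UBB+1 strain, where 10 of 5444 genes and 0 SUMO genes had an unadjusted p under 0.05. In this strain the arrays were alike across the phases, EX 1 and D6 2 with an SD of 0.086 over genes and EX 2 and D6 1 with 0.143, against 0.249 between the EX replicates and 0.287 between the D6 replicates. Leaving out either of these pairs kept a single L-UBB+1 array at each phase, and the arrays kept were the other alike pair. Those fits therefore could not show a phase difference. In the control strain 0 of the 10 passed, against 3.51% of all genes, and 1480 genes had an unadjusted p under 0.05. *SMT3* was the 1 SUMO gene among these (adjusted p = 0.147), at 10.09 and 10.11 on the D6 arrays against 10.45 and 10.35 on the EX arrays of the control strain. The methods' general Student t-test, not named there for the arrays, also passed 0 of the 10 after adjustment in either strain. In the L-UBB+1 strain *SMT3* differed by 0.05 (-0.21 to 0.32). 

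The strain difference itself was compared between the phases as the D6 value minus the EX value. It passed for 0 of the 10 genes and for 0% of all genes at an adjusted p under 0.05, while 868 genes had an unadjusted p under 0.05. Among the SUMO genes *ULP2* alone was below 0.05 unadjusted (-0.32, 95% interval -0.61 to -0.04, adjusted p = 0.287), its rise being smaller at D6. *SMT3* had the largest value in size at 0.35 (-0.02 to 0.73, adjusted p = 0.335). For *SLX8* the value was 0.10 (-0.24 to 0.44) and for *SLX5* -0.26 (-0.58 to 0.05), intervals that leave room for a small difference between the phases.

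**Figure D3:**
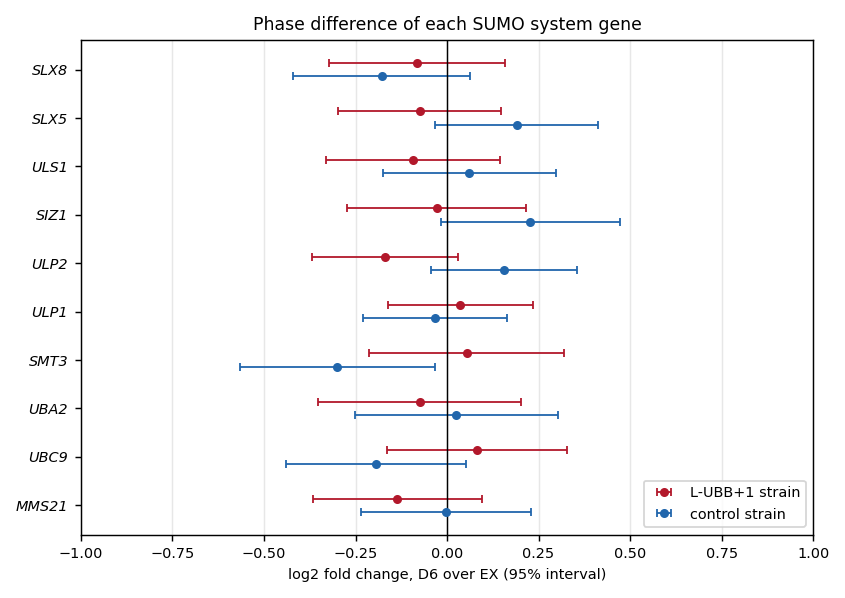
Log2 fold change of each SUMO system gene, D6 over EX (horizontal axis), within the L-UBB+1 strain and within the control strain, with bars for the 95% interval from limma. Every value lies between -0.30 and 0.23, and the *SMT3* interval of the control strain, -0.57 to -0.03, is the one that does not reach 0.

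With each gene centred on its own mean, the root mean square difference between the 8-array profiles of 2 called genes ranged from 0.0721 (*SLX5* and *ULS1*) to 0.682 (*ULP1* and *SLX8*) over the 15 pairs. *ULP1* was closer to *UBC9* (0.361), which was not called, than to *SIZ1* (0.382), *ULS1* (0.439) or *SLX5* (0.449), and closest to *ULP2* (0.274). Over all 5444 genes, the 5 nearest to *SLX5* by the same measure were *ARP8* (0.0434), *BRE4* (0.051), *SUA7* (0.0677), *SEF1* (0.0692) and *STP1* (0.0701). They include a subunit of the INO80 remodeller (*ARP8*) and the general transcription factor TFIIB (*SUA7*). Nearest to *SLX8* were *YPL150W* (0.0781), *PKH2* (0.0816), *BSC4* (0.086), *YDR262W* (0.0901) and *FZO1* (0.0916), the last of which encodes the mitofusin of mitochondrial fusion. For *SMT3* the nearest were *TIM8* (0.0376), *ATP16* (0.0473), *DID2* (0.0479), *ELF1* (0.0531) and *TIM13* (0.0533), with small chaperones of mitochondrial import (*TIM8*, *TIM13*) and the delta subunit of the ATP synthase (*ATP16*) among them.

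Among 5 other genes of the SUMO pathway, 1 was called higher and 0 lower at both phases, against 17.2% of all genes as higher at EX and 17.9% at D6. These shares also stand beside the lists that follow, and 1 call among 5 or 7 genes lies near them. *NFI1*, which encodes Siz2, the paralogue of Siz1, rose by 1.98 at EX and 1.95 at D6, so both PIAS-type ligase genes rose. *AOS1*, the partner of *UBA2* in the activating enzyme, differed by -0.34 at EX (adjusted p = 0.0225) and -0.22 at D6 (adjusted p = 0.102), and was not called. The values of *WSS1*, a protease that acts on SUMO-bearing DNA-protein crosslinks, were 0.56 and 0.53, those of *CST9*, a meiotic ligase gene, 0.44 and 0.54, and those of *ESC2*, a SUMO-like domain protein gene, 0.36 and 0.32. The median of these 5 genes was 0.44 at EX and 0.53 at D6.

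The Smc5/6 complex, which carries Mms21, had 7 other measured subunit genes with 1 called higher and 0 lower at each phase, and medians of 0.46 and 0.62. *NSE1*, whose product is a RING protein of the complex, rose by 1.66 at EX and 1.47 at D6. The core genes *SMC5* and *SMC6* had log2 fold changes of 0.81 and 0.92 at EX and stayed short of the fold minimum. *NSE5* was at -0.10 at EX and -0.43 at D6.

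Of 7 genes for proteins that hold Ulp1 at the nuclear pore or import it, 1 was called higher at both phases, with 0 called lower at EX and 2 at D6, and the median was -0.47 and -0.52. *ESC1*, which anchors telomeres and pore complexes at the nuclear envelope, rose by 1.496 at EX and by 1.504 at D6. *NUP60* and *NUP133*, nucleoporin genes, both had a value of -0.81 at EX. At D6 *NUP60* fell by 1.00 and *NUP133* by 1.19, in log2 units. The basket gene *MLP1* stood at 0.80 and its paralogue *MLP2* at -0.47 at EX. Over this list the direction was thus mixed, beside a rise of *ULP1* itself.

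Downstream of the SUMO-targeted ligases, Cdc48 with Ufd1 and Npl4 extracts modified proteins, and shuttle factors bring them to the proteasome. Of 7 such genes 1 was called higher and 0 lower at each phase, with medians of 0.63 and 0.78. *UFD1*, whose product binds both ubiquitin and SUMO, rose by 1.26 at EX and 1.52 at D6. *CDC48* itself was at -0.02 (95% interval -0.24 to 0.20) and 0.04 (-0.18 to 0.26), and *NPL4* at 0.63 and 0.78.

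*SLX5* and *SLX8* were found, with *SLX1*, *SLX4*, *MMS4* and *MUS81*, as genes required in cells without the helicase Sgs1. Of 7 genes of that network 5 were called higher and 0 lower at each phase, with medians of 1.36 at EX and 1.14 at D6. *SLX4*, the scaffold of the Slx1 nuclease, rose by 1.95 and 1.86, and *RMI1*, a partner of Sgs1 and Top3, by 1.64 and 1.33. *SGS1* rose by 1.39 and 1.12. *TOP3* and *MUS81* were called as well. The nuclease subunit genes *SLX1*, at 0.56 and 0.74, and *MMS4*, at 0.29 and 0.35, were not called.

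Among 17 genes of proteins known to carry SUMO, calls at EX went up for 4 and down for 2, and at D6 up for 3 and down for 2, near the shares over all genes, with medians of -0.01 and 0.16. *POL30*, the gene of PCNA, a substrate of Siz1, fell by 2.28 at EX and by 2.40 at D6 on the log2 scale. The septin gene *CDC3*, also a substrate of Siz1, fell by 1.15 and 1.17, while the septin genes *CDC11* (-0.81 at EX) and *SHS1* (-0.33 at EX) were not called. *BIR1*, a chromosomal passenger gene, rose by 1.61 and 1.43, *SIR4*, a silencing gene, by 1.47 and 1.15, and *YEN1*, a Holliday junction resolvase gene, by 1.14 and 1.18. *RAP1*, the telomere and promoter binding protein gene, rose by 1.20 at EX and stood at 0.75 at D6. The genes of substrates thus had no common direction.

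**Figure D4:**
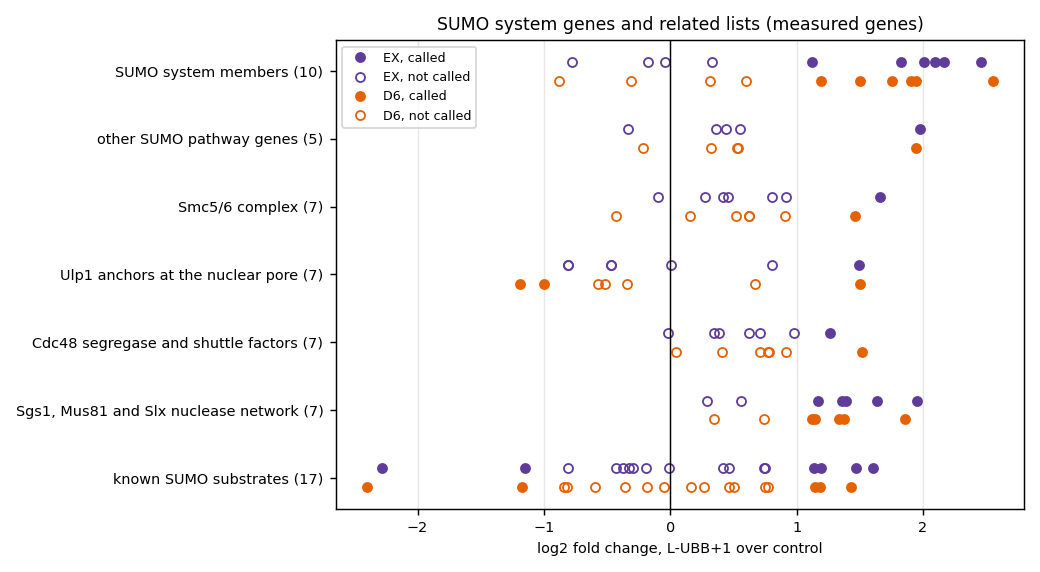
Log2 fold change, L-UBB+1 over control (horizontal axis), of the 10 SUMO system genes and of 6 lists of related genes, with EX above D6 in each list. Filled points are called genes and open points are not. The medians are 1.48 at EX for the SUMO system, 1.36 for the Sgs1, Mus81 and Slx network, -0.47 for the Ulp1 anchors and -0.01 for known substrates.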

How the data were processed

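Transcripts of 4 groups of 2 biological duplicates (8 arrays) were measured. The deposited values are log2 expression levels per probe set, which the authors made in R with the PIANO package from the scanned arrays (R 3.2.3 in the submitters' processing notes). How probes were summarized and arrays normalized is a step not given in the sources used here, and the number of arrays limits the precision. Of 5705 probe sets, 5489 named 1 gene and 216 none, and these were left out. For 43 genes with several probe sets, the one with the highest mean was used, and 12 symbols were updated, leaving 5444 genes.

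All genes were fitted in R 4.3.3 with limma 3.58.1 (lmFit, eBayes) to the 4 group means, with 4 residual and 3.26 prior degrees of freedom and Benjamini-Hochberg adjustment. A strain difference was called where the adjusted p was below 0.001 and the difference reached 1 on the log2 scale, and phase differences were counted below 0.05. The script was tested on simulated data. P-values rest on the spread between duplicates, pooled over the 4 groups and moderated over all genes. In the L-UBB+1 strain, arrays of different phases (SD 0.086 and 0.143) were closer than the duplicates (0.249 and 0.287). Whether those 4 arrays stand for independent cultures was not tested.

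The SUMO genes and the lists were chosen with earlier results of these data known. Named in the text were all 10 genes, the 3 largest called changes of each list at EX with its defining genes, the 5 nearest profiles to *SLX8*, *SLX5* and *SMT3*, and markers of phase and mating type. Named after their values were seen were the other genes of the lists given with values and the genes next to the SUMO genes. Lists are described by counts and medians without a set test. The alternatives tried were 2 normalizations, a filter on dim genes, averaged probe sets, fits of fewer arrays, another prior, a replicate block, other thresholds, the methods' t-test and leaving out each array. Sequences of the genes are not used here.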

Additional observations from a re-analysis of the deposited data

How the results depend on the processing

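The 6 SUMO genes called at each phase were called under every alternative that tested them. *SIZ1* and *MMS21* were not tested when the dimmest genes were left out. The alternative of L-UBB+1 D6 against control EX reuses arrays of the main fit and mixes strain with labelled phase. Over 356 fold changes of SUMO genes under alternatives, 0 calls were lost, 0 gained and 4 turned sign, all of *SMT3* at EX, where the value of -0.04 ranged from -0.151 to 0.074 with 1 array left out, was 0.074 without the L-UBB+1 arrays EX 1 and D6 2 together, and 0.015 between L-UBB+1 D6 and control EX arrays alone. Chosen after seeing the data were the L-UBB+1 D6 against control EX fit, the crossed block and the fits without L-UBB+1 EX 1 and D6 2 or without EX 2 and D6 1, and the cause was not tested. Many of the 356 fold changes could not move. Averaged probe sets (1 per SUMO gene), the filter on dim genes, another prior, a replicate block or leaving out arrays of the other phase return the same value. The 356 leave out the other thresholds, the t-test and the crossed block. They hold the L-UBB+1 D6 against control EX fit at both phases. Some values did not keep 1 side of an adjusted p of 0.05 by limma. Quantile normalization moved *UBC9* at EX from 0.0229 to 0.0823 and *SMT3* at D6 from 0.0357 to 0.063. It moved *MMS21* at EX from 0.14 to 0.0389. *MMS21* at D6 went from 0.0224 to 0.0705 when only the 2 groups compared were fitted.

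With no fold minimum and an adjusted p under 0.05, 10 SUMO genes passed at D6, and 4066 genes passed at EX and 4140 at D6 over the array, against 1867 and 1979 called. The methods' t-test, unadjusted, passed 3493 genes at EX and 3293 at D6, and 2 SUMO genes between the phases of the control strain (*SMT3*, *ULP2*). After Benjamini-Hochberg adjustment it passed 2954 genes at EX. Same-numbered duplicates of the strains deviated in opposite directions (correlation -0.388 at EX and -0.214 at D6), so the numbers were not taken to pair cultures. Between L-UBB+1 EX and D6 the correlation was -0.855, where EX 1 lay close to D6 2 and EX 2 to D6 1, and a block with the numbers crossed was added for this. With the replicate block 6 SUMO genes were called at EX and 6 at D6, and no other count of SUMO genes changed. With a crossed replicate block these counts were 6 and 6, over 1984 and 2083 called genes. With 2 arrays a group, some differences well under 2-fold passed an adjusted p under 0.05 by limma, as for *UBC9* at D6 (1.52-fold, adjusted p = 0.00122). Smaller ones, such as that of *MMS21* with its dim probe set, did not keep 1 side of that threshold over the alternatives.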

Other observations

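The genes that lie next to the SUMO genes on the chromosome, by the RefSeq table of the S288C R64 assembly, included calls in both directions. Of 20 neighbours 18 were measured, and none of their annotated spans overlapped a SUMO gene. At EX 4 neighbours were called higher and 4 lower, the median of their log2 differences being 0.13, and at D6 4 were higher and 5 lower (median 0.08). The shares over all genes were 17.2% higher and 17.1% lower at EX, and 17.9% higher and 18.5% lower at D6. These few calls among the neighbours lie near those shares. *SIZ1*, at 2.01, lies between *ADE8*, a purine synthesis gene that fell by 1.43 at EX, and *STE14*, the methyltransferase gene of a-factor maturation that fell by 1.31. *SLX8*, at 2.46, lies between *SPR6*, a sporulation gene that rose by 2.78, and *RPL23B*, a ribosomal protein gene that fell by 1.08. Both neighbours lay above 0 for *ULP1*, at 1.12 (*ECM23* rose by 1.41, *VTC3* stood at 0.51), and for *ULS1*, at 2.10 (*THI72* rose by 1.29, *SPR1* stood at 0.64). *SLX5*, at 2.17, lies next to *NOP1*, the nucleolar fibrillarin gene, at -0.52 at EX (adjusted p = 0.0804, limma). At D6 *NOP1* was called lower, at -1.42 (adjusted p = 0.000967, limma). *UBC9*, at 0.33, lies next to *PEX19*, a peroxisome biogenesis gene that rose by 2.21, and *SMT3*, at -0.04, next to the amino acid permease gene *GNP1*, which fell by 1.22. These neighbours were looked up after the values of the SUMO genes were known.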
